A study of Homo sapiens with 2 samples.

Results

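Aminoacyl-tRNA synthetases load each tRNA with its amino acid, and 39 genes for these enzymes and their partners were followed in the RNA of HEK293 cells. They were chosen by name from the 59026 genes of GENCODE v44 to which the listed transcripts could be matched. There were 20 genes for enzymes of the cytosol, 16 for enzymes of mitochondria with symbols that end in 2, and 3 for scaffold proteins of the multi-synthetase complex. GARS1 and KARS1 serve both compartments and were counted with the cytosolic enzymes. For each gene, the values of all its listed transcripts were summed in each library.

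Total RNA had been taken from HEK293 Flp-In T-Rex cells, a derivative of an embryonic kidney cell line with a defined site for inserting a tetracycline-inducible transgene. No treatment and no transgene were listed for these cells, and rRNA was removed before TruSeq libraries were made. The group consisted of 2 libraries, replicate 1 with 25158962 and replicate 2 with 27143860 estimated counts, and it was not stated whether they came from separate cultures. With 1 group no test between conditions exists, and the smallest two-sided p of a sign-flip test over 2 libraries is 0.5, so no p-values are given.

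The labelled cell line was checked against its markers. All 6 HEK293 markers examined (PAX2, LHX1, VIM, NEFM, NEFL and INA) were above 0 in both libraries, with sums of 18786 and 17791 normalised counts. VIM made up most of these sums, with 16406.5 and 15362.9, while PAX2 (33.9 and 50.1) and NEFM (14.5 and 18.7) were low. ALB, PTPRC, CDH5 and UMOD, which mark hepatocytes, leukocytes, endothelium and the loop of Henle, were listed at 0 in both. COL1A1, a fibroblast collagen, held 156 and 291 normalised counts, more than PAX2, LHX1 and NEFM and fewer than VIM, NEFL and INA.

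In human cells, 2 sets of synthetases work side by side, since the tRNAs of the mitochondrial genome are charged inside the organelle. Both sets are encoded in the nucleus and made in the cytosol, and the mitochondrial enzymes are then imported with the help of an N-terminal targeting sequence. Some cytosolic enzymes are bound into a large complex held together by AIMP1, AIMP2 and EEF1E1. Several cytosolic synthetase genes are also known targets of the transcription factor ATF4, which acts when amino acids run short.

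The dual genes differ in how they make their enzymes, and the coding starts are shown for that reason. KARS1 (ENSG00000065427, chr16:75627474-75648643), the lysine enzyme, uses splicing, so that its cytosolic and mitochondrial forms come from different transcripts. GARS1 (ENSG00000106105, chr7:30580533-30634033), the glycine enzyme, uses different start codons in the same mRNA. Each sequence gives 30 bases of the coding strand from GRCh38 (GENCODE v44), with the start codon in capitals.
KARS1-201, cytosolic form, chr16:75647610-75647639, minus strand: ATGgcggccgtgcaggcggccgaggtgaaa
KARS1-202, mitochondrial form, chr16:75644399-75644428, minus strand: ATGttgacgcaagctgctgtaaggcttgtt
GARS1-201, codon 1, chr7:30594922-30594951, plus strand: ATGccctctccgcgtccagtgctgcttaga
GARS1-201, codon 55, chr7:30595084-30595113, plus strand: ATGgacggcgcgggggctgaggaggtgctg
The KARS1 starts lie in different exons, and the GARS1 starts lie in the same exon and reading frame.

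Most KARS1 reads were assigned to the cytosolic form. KARS1-201, which encodes 597 amino acids, held 90.5% of the KARS1 counts in replicate 1 and 90.5% in replicate 2. KARS1-202, which encodes 625 amino acids, held 4.16% in replicate 1 (exact 95% interval 3.58 to 4.81%) and 2.54% in replicate 2 (2.09 to 3.07%), a mean of 3.35% ± 1.14 (SD, n = 2). The intervals cover counting error only and do not overlap, so the libraries differed in this share by more than counting error. KARS1-202 shares 13 of its 15 exons with KARS1-201 and carries its start codon in an exon of 180 nt that KARS1-201 lacks (chr16:75644283-75644462). Of the 12 listed KARS1 transcripts, 4 use this start, and together they held 8.65% and 7.96%, a mean of 8.30% ± 0.491 (SD, n = 2). The other 3 of these 4 encode 67, 124 and 256 amino acids in GENCODE v44. KARS1 overlaps TERF2IP on the opposite strand.

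GARS1 could not be divided in the same way. GARS1-201, which encodes 739 amino acids from codon 1, held 79.0% of the GARS1 counts in replicate 1 and 83.2% in replicate 2. Since both of its starts lie in this transcript, its counts do not tell the cytosolic from the mitochondrial enzyme.

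Levels were compared between genes per length: each transcript's estimated count was divided by its GENCODE v44 length, summed over the gene and scaled to 1000000 per library. A difference was called larger than the spread when the order was shared by the libraries and the means were further apart than their SDs summed. On this scale the cytosolic or dual enzymes were the more abundant class. Their median level was 82.6 in replicate 1 and 74.8 in replicate 2, and that of the mitochondrial enzymes was 22.3 and 17.7. The cytosolic median was thus 3.71-fold and 4.23-fold higher, a mean of 3.97-fold ± 0.367 (SD, n = 2), which was larger than the spread. With gene totals divided by the coding length of the canonical transcript the ratio was 2.48-fold. For orientation, the median over 26370 genes that reached 1 normalised count in each library was 1.82 and 1.91, and that of the protein-coding genes among them was 7.62 and 7.63.

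As these were bulk libraries, a low level of RNA per cell and expression in few cells cannot be told apart. The classes overlapped at their edges. No mitochondrial enzyme reached the cytosolic median in either library, and 3 cytosolic genes, HARS1, FARSB and TARS3, lay below the mitochondrial median in each library. With coding lengths FARSB had a mean of 26.4, between the middle mitochondrial genes RARS2 (27.6) and NARS2 (24.2). Mitochondrial enzymes made up 19.8% of the summed level of all synthetases in replicate 1 and 21.5% in replicate 2. All 39 genes passed a mean of 10 normalised counts, the lowest being FARS2 with 238 and 233.

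**Figure D1:**
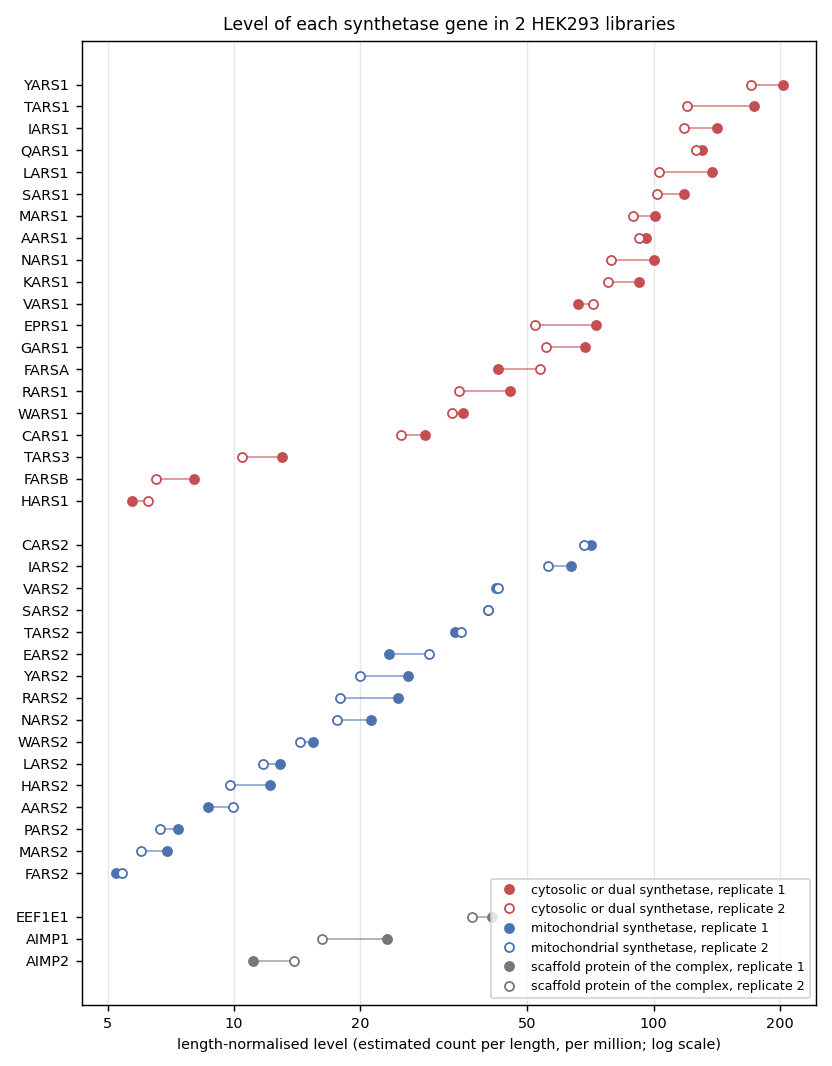
Length-normalised level of each gene (horizontal log axis, estimated count per length scaled to 1000000 per library) in replicate 1 (filled) and replicate 2 (open), ordered by mean within each class. Most cytosolic enzymes lie above 50, while CARS2 and IARS2 are the mitochondrial enzymes above that level in both libraries.

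Among the cytosolic enzymes, YARS1, the tyrosine enzyme, had the highest mean level, with 204 in replicate 1 and 171 in replicate 2, but IARS1 led with normalised counts and SARS1 with protein-coding transcripts only. TARS1, the threonine enzyme, followed with 174 and 121. IARS1 for isoleucine had 142 and 118. These genes could not be placed in a firm order: of the 19 neighbouring pairs in the cytosolic ranking, 4 differed by more than the spread.

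The middle of the ranking was dense. From QARS1, which loads glutamine and had 130.5 and 126.5, down to KARS1 with 92.4 and 78.1, no neighbours differed by more than the spread, and the range held LARS1 (leucine), SARS1 (serine), MARS1 (methionine), AARS1 (alanine) and NARS1 (asparagine). KARS1 lay above VARS1, the valine enzyme, which had 66.1 and 71.6. EPRS1, a fused enzyme for glutamate and proline, had 72.8 and 52.2, and GARS1 had 68.8 and 55.4. The lower end was better separated. WARS1 for tryptophan (35.1 and 33.1) lay above CARS1 for cysteine (28.5 and 25.0), CARS1 above TARS3, a paralogue of TARS1 (13.0 and 10.4), and TARS3 above FARSB (8.01 and 6.50). HARS1, the histidine enzyme, was at 5.70 and 6.24, and its difference from FARSB was within the spread. TARS1 and TARS3 are similar in sequence, and how reads were split between them is uncertain.

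On this scale more of the mitochondrial enzymes could be ordered, with 9 of 15 neighbouring pairs apart by more than the spread. CARS2 (ENSG00000134905, chr13:110641412-110713603), the cysteine enzyme, was the highest with 70.9 in replicate 1 and 68.2 in replicate 2. This place depended on the scale: IARS2 led with normalised counts, with canonical transcript or coding lengths and with protein-coding transcripts only, where CARS2 had 24.3 and 24.8 and IARS2 62.6 and 51.6. IARS2 for isoleucine came next with 63.7 and 56.1, followed by VARS2 for valine with 42.1 and 42.6. The next places, each below the one before by more than the spread, were taken by SARS2 for serine with 40.2 and 40.3, TARS2 for threonine with 33.6 and 34.8, and EARS2 for glutamate with 23.4 and 29.1. EARS2 was at rank 6 here, but at 5 with normalised counts and 3 with coding lengths. It was at rank 10 with canonical transcript lengths and with protein-coding transcripts only. YARS2 (26.0 and 19.9), RARS2 (24.5 and 17.9) and NARS2 (21.2 and 17.6) were not separable from their neighbours above. WARS2, LARS2, HARS2, AARS2, PARS2, MARS2 and FARS2 had mean levels from 14.9 down to 5.31, with FARS2, the phenylalanine enzyme, the lowest of them.

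Cytosolic and mitochondrial enzymes that use the same amino acid were then paired, which gave 18 pairs, with EPRS1, TARS2 and FARS2 each in 2 of them. The cytosolic gene was higher in 15 pairs and the mitochondrial gene in 3, in both libraries and by more than the spread. The median log2 ratio of cytosolic to mitochondrial level over the pairs was 1.34. Per length, MARS1 exceeded MARS2 most, 14.6-fold in replicate 1 and 14.9-fold in replicate 2. AARS1 exceeded AARS2 11.1-fold and 9.28-fold. LARS1 exceeded LARS2 10.8-fold and 8.79-fold. Ratios of this size were not the rule, and in 6 of the 15 pairs the mean ratio stayed under 2.5-fold. The place of MARS1 to MARS2 depended on the scale: EPRS1 to PARS2 was the largest ratio with normalised counts (13.9-fold against 7.26-fold), AARS1 to AARS2 with canonical transcript lengths (10.1-fold against 7.86-fold) and YARS1 to YARS2 with coding lengths (9.66-fold against 4.78-fold).

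Per length, the smallest difference in favour of the cytosolic gene was that of FARSB over FARS2 (1.54-fold and 1.21-fold). VARS1 over VARS2 (1.57-fold and 1.68-fold) and RARS1 over RARS2 (1.86-fold and 1.92-fold) came next. The place of FARSB depended on the scale: its ratio to FARS2 was 5.40-fold with normalised counts and 4.14-fold with coding lengths. EPRS1 exceeded PARS2, its mitochondrial counterpart for proline, 9.92-fold and 7.83-fold, but EARS2, that for glutamate, by 3.11-fold and 1.79-fold. EPRS1 is the same value in both ratios, so this contrast reflects the levels of PARS2 (7.34 and 6.67) and EARS2. The size of the contrast depended on the scale. With protein-coding transcripts only the ratios were 6.80-fold to PARS2 and 5.06-fold to EARS2, and with canonical transcript lengths 6.74-fold and 4.07-fold. With normalised counts they were 13.9-fold and 3.80-fold, and with coding lengths 4.37-fold and 1.32-fold. With protein-coding transcripts only, VARS1 over VARS2 (1.20-fold) and IARS1 over IARS2 (1.32-fold, from 2.22-fold and 2.11-fold in the libraries) were within the spread. With coding lengths, the same held for RARS1 over RARS2 (1.39-fold) and EPRS1 over EARS2 (1.32-fold). The call compares levels, whose SDs include any shift that both genes share between the libraries. The ratio within a library kept its sign for IARS1 over IARS2 (log2 0.40, SD 0.077) and RARS1 over RARS2 (log2 0.47, SD 0.073).

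The order was the opposite for cysteine, histidine and one of the threonine pairs. CARS2 exceeded CARS1 2.49-fold in replicate 1 and 2.72-fold in replicate 2. TARS2 exceeded TARS3 2.59-fold and 3.34-fold, although TARS1, the main cytosolic threonine enzyme by level, exceeded TARS2 5.18-fold and 3.46-fold. HARS2 exceeded HARS1 2.14-fold and 1.56-fold. The histidine result did not hold on every scale: with normalised counts, which are not divided by length, the log2 ratio of HARS1 to HARS2 was -0.82 in replicate 1 and -0.09 in replicate 2, within the spread.

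**Figure D2:**
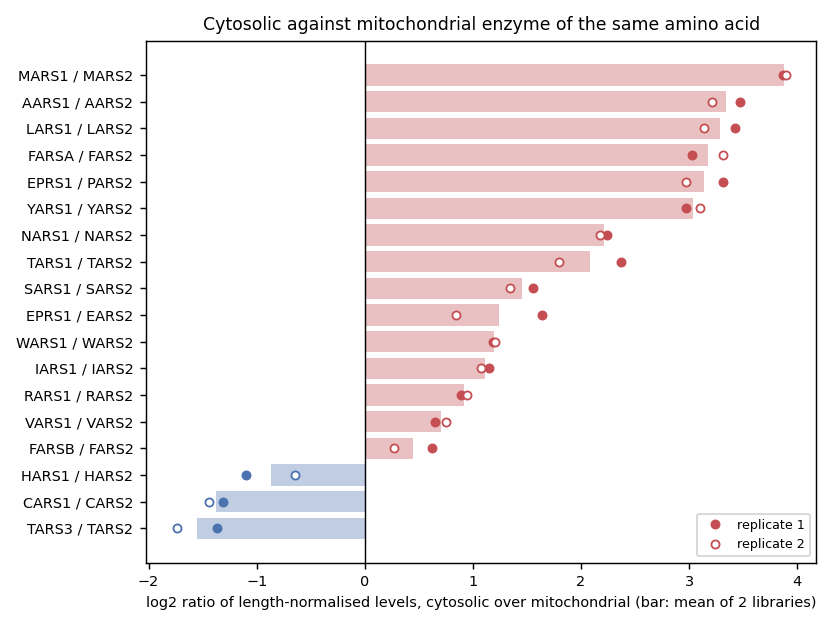
Log2 ratio of the length-normalised level of the cytosolic to that of the mitochondrial enzyme for 18 pairs (horizontal axis), in replicate 1 (filled), replicate 2 (open) and as their mean (bar). Bars to the right mean a higher cytosolic gene, as in 15 pairs, and the 3 bars to the left belong to HARS1, CARS1 and TARS3.

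Within the cytosol, the 7 enzymes of the multi-synthetase complex (EPRS1, IARS1, LARS1, MARS1, QARS1, KARS1 and RARS1) were compared with the 13 others. The median level of the complex enzymes was 100.8 in replicate 1 and 89.4 in replicate 2, against 66.1 and 55.4 for the others. This was 1.53-fold and 1.61-fold higher, a mean of 1.57-fold ± 0.0616 (SD, n = 2), and larger than the spread. The classes overlapped widely, since YARS1 and TARS1 outside the complex were above every complex enzyme by mean, and RARS1 for arginine (45.5 and 34.4), the lowest of the complex, was below 8 of the others. The number of copies each protein has in the complex was not measured here.

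The genes of the scaffold proteins were lower than those of the enzymes they bind. EEF1E1 was the highest with 41.1 in replicate 1 and 37.0 in replicate 2, AIMP1 had 23.1 and 16.2, and AIMP2 had 11.1 and 13.9. Each differed from the next by more than the spread. All 3 were below each of the 7 complex enzymes by mean, but EEF1E1 was above RARS1 in replicate 2.

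FARSA and FARSB encode the subunits of the cytosolic phenylalanine enzyme, which contains equal numbers of each. FARSA had a level of 42.6 in replicate 1 and 53.6 in replicate 2, and FARSB 8.01 and 6.50. The ratio was 5.32-fold and 8.24-fold, larger than the spread. The size of this difference rested on the length of FARSB. Its canonical transcript is 6761 nt long in GENCODE v44 for a protein of 589 amino acids, while that of FARSA is 1811 nt for 508 amino acids. With normalised counts the ratio was 1.75-fold, and with coding lengths it was 2.02-fold, in the same direction and larger than the spread.

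Other genes that act on charged tRNA were lower than the synthetases as a group. Their 9 levels had a median of 9.47 in replicate 1 and 9.98 in replicate 2. GATC, GATB and QRSL1 are the subunits of the mitochondrial enzyme that turns glutamate on tRNA into glutamine, for which EARS2 supplies the charged tRNA. GATC had 26.0 and 25.8, GATB 9.47 and 11.0, and QRSL1 10.9 and 9.98, so that the subunits were unequal as transcripts. MTFMT, which formylates the initiator methionyl-tRNA of mitochondria, had 18.3 and 14.1, above MARS2 in both libraries, and a mean of 78.7% of its counts lay in transcripts annotated for decay. AARSD1, an editing factor for mischarged tRNA, had 20.7 and 20.7. DTD1 (8.45 and 8.39) removes D-amino acids from tRNA, and the related gene DTD2 had 9.33 and 7.01. PSTK (5.87 and 3.89) and SEPSECS (2.61 and 2.69), which build selenocysteine on its tRNA, were the lowest.

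The same members were then followed from replicate 1 to replicate 2 in normalised counts, the authors' estimated counts divided by a size factor per library. None of the 39 genes differed by more than 2-fold, where 5.76% of the 19110 genes with a mean of 10 or more normalised counts did. The lowest mean of a member was 236 normalised counts, and among all genes with a mean of at least 100 the share was 1.19%. Smaller differences had a direction. In replicate 2, 30 of 39 members were lower, where 55.3% of all genes were. The median log2 difference (replicate 2 minus replicate 1) was -0.21 over the members and -0.06 over all genes. It was -0.24 for the cytosolic and -0.12 for the mitochondrial enzymes, and all 7 complex enzymes were lower in replicate 2, by a median of -0.32.

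These differences moved with base composition. Over the 39 members, the G and C content of the canonical transcript and the log2 difference had a Spearman's rho of 0.815 and a Pearson's r of 0.724, and over 13955 protein-coding genes these were 0.764 and 0.605. All points share the same 2 libraries, so the values describe these libraries. Of 20 members under 50% G and C, 2 were higher in replicate 2, with a median log2 difference of -0.33. Of the 19 other members, 7 were higher, with a median of -0.01. Among all protein-coding genes the shares higher in replicate 2 were 11.9% under 50% and 77.0% at or above it. The part of base composition in the members' differences was not tested.

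EARS2 and HARS2 stood apart from this trend. EARS2 went from 1324 normalised counts to 2070, a log2 difference of 0.64 at 48.9% G and C. HARS2 went from 665 to 402, a log2 difference of -0.73 at 50% G and C. These were the largest differences among the members in either direction. EARS2 overlaps GGA2 on the same strand over 1242 bases, and GGA2 held 4040 and 4063 normalised counts. HARS2 overlaps ZMAT2 on the same strand over 626 bases, and ZMAT2 held 2129 and 1599. The part of these neighbours was not tested.

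**Figure D3:**
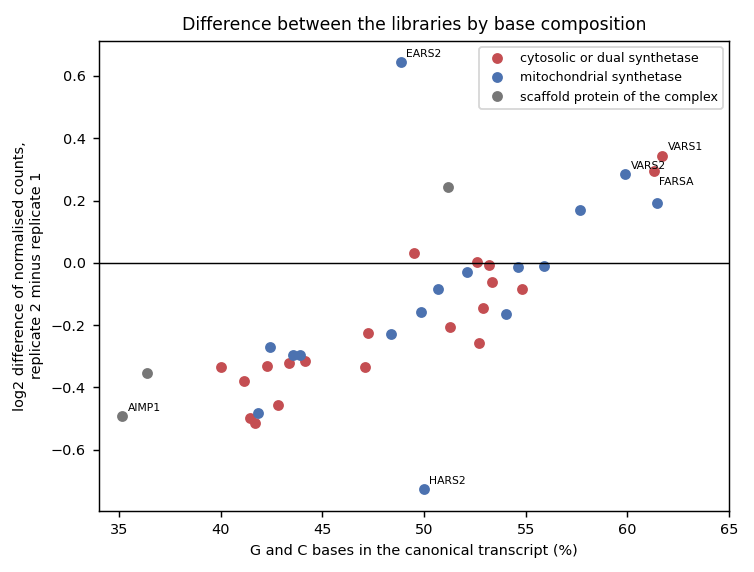
Log2 difference of normalised counts between the libraries (replicate 2 minus replicate 1, vertical axis) against the G and C content of the canonical transcript (horizontal axis, percent) for the 39 genes, coloured by class. Points rise from AIMP1 at 35.2% to VARS1 at 61.7%, with EARS2 above and HARS2 below the others.

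The transcript with the most counts (the leader) did not change between the libraries for 34 of the 37 members with several transcripts. Among all 16735 such genes that reached 1 normalised count in each library this share was 78.5%, and among those that reached 10 it was 81.9%. The 3 exceptions were mitochondrial enzymes. For SARS2 the leader passed from SARS2-205 (49.6% in replicate 1, 35.8% in replicate 2), which encodes 328 amino acids, to SARS2-201 (9.35% and 38.7%), which encodes 518. For VARS2 it passed from VARS2-211 (46.4% and 19.3%, 923 amino acids) to VARS2-210 (6.51% and 34.9%, 1063 amino acids). For HARS2 it passed from HARS2-201 (43.5% and 12.6%) to HARS2-214 (28.3% and 16.5%). The length-normalised levels of SARS2 and VARS2 as genes were close between the libraries, as given above.

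Of the 35 members with several transcripts and a listed Ensembl canonical one, this transcript led in both libraries for 25, in 1 library for 2 and in neither for 8. Over 13651 protein-coding genes of the same kind it led in both libraries for 50.3% and in neither for 37.7%. In 7 members the leader of both libraries encoded a shorter protein than the canonical transcript: CARS1, LARS1, QARS1, TARS3, WARS1, WARS2 and AIMP1. The gap was widest for QARS1 (QARS1-209, 51.1% and 47.3% of counts, 630 against 775 amino acids) and WARS2 (WARS2-202, 63.1% and 64.4%, 220 against 360 amino acids). For AIMP1 and VARS2 the canonical transcript was not among the listed transcripts, and none of the other 37 canonical transcripts had the same version in the tables as in GENCODE v44. Lengths given here can therefore differ from those of the models the reads were assigned to.

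Transcripts annotated as protein-coding held most of the counts. The median share over the members was 89.6% in replicate 1 and 89.6% in replicate 2, where that over 15537 protein-coding genes was 92.9%. With counts divided by length it was 79.3% for the members. The mean share was under 50% in 2 of 39 members, HARS1 and CARS2, where 12.2% of protein-coding genes that reached 1 normalised count in each library were under it. In the scaffold genes it was 96.7% or more.

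Transcripts annotated for nonsense-mediated decay, the pathway that removes mRNAs with an early stop codon, held at least 20% of the counts in 8 of 39 members, of which 6 were cytosolic and 2 mitochondrial. Over all protein-coding genes this share of genes was 10.5%. TARS1 had the highest mean decay share, 39.3%, most of it from TARS1-209 (24.5% in replicate 1 and 14.3% in replicate 2) and TARS1-210 (23.9% and 13.5%). The leading coding transcript of this gene, TARS1-204, went the other way, from 38.5% to 60.1%. Both decay transcripts thus had smaller shares in replicate 2 and the coding leader a larger one. IARS1-204 held 31.0% and 34.6% of IARS1. QARS1-205 held 25.8% and 24.2% of QARS1, and NARS1-204 held 22.4% and 25.0% of NARS1. These shares were close between the libraries, unlike those of TARS1. TARS3, HARS2, YARS2 and YARS1 had mean decay shares of 36.8, 32.2, 29.0 and 21.2%. The share of HARS2 went from 21.8% in replicate 1 to 42.7% in replicate 2, and that of YARS2 from 22.1% to 36.0%. Those of TARS3 (36.6 and 37.0%) and YARS1 (22.7 and 19.8%) were closer between the libraries.

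Transcripts with a retained intron held at least 20% in 3 members, HARS1 (60.7%), CARS2 (30.2%) and YARS1 (23.6%), again beside 10.5% of all protein-coding genes. CARS2 also held 22.3% in transcripts with no defined coding sequence. Its coding transcript CARS2-201 held 43.5% of counts in replicate 1 and 48.3% in replicate 2. With protein-coding transcripts only, the level of CARS1 was 0.832 times that of CARS2, still lower by more than the spread.

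HARS1 had the lowest protein-coding share of the members, 35.1% in replicate 1 and 23.3% in replicate 2. The gene summed to 377 and 378 normalised counts. The canonical transcript HARS1-207, which encodes 509 amino acids, was listed at 0 in both libraries. Counting error alone allows a share of up to 0.842% in replicate 1 and 0.736% in replicate 2. These limits do not cover how reads shared between transcripts were assigned, so the true share can be higher. Of the 37 listed canonical transcripts of members, only HARS1-207 was at 0 in both libraries. Among protein-coding genes that reached 10 normalised counts in each library, 7.79% had theirs at 0, and 10.9% of those that reached 1. The leader, HARS1-209, has a retained intron and held 30.9% and 35.5%. HARS1-205, which encodes 489 amino acids, held 30.0% in replicate 1 and was listed at 0 in replicate 2. HARS1 (ENSG00000170445, minus strand, chr5:140673035-140691537) and HARS2 (ENSG00000112855, plus strand, chr5:140691430-140699305) are transcribed in opposite directions from starts that overlap by 108 bases, and HARS1 overlaps WDR55 on the opposite strand over 1090 bases. How strand was treated in counting is not given in the sources used here, so reads from these stretches can belong to either gene. In all, 21 of 39 members overlap another gene with at least 10 normalised counts, 18 of them on the opposite strand. Among 13992 protein-coding genes with a mean of 10 or more normalised counts, 46.2% overlap another such gene and 37.3% one on the opposite strand.

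**Figure D4:**
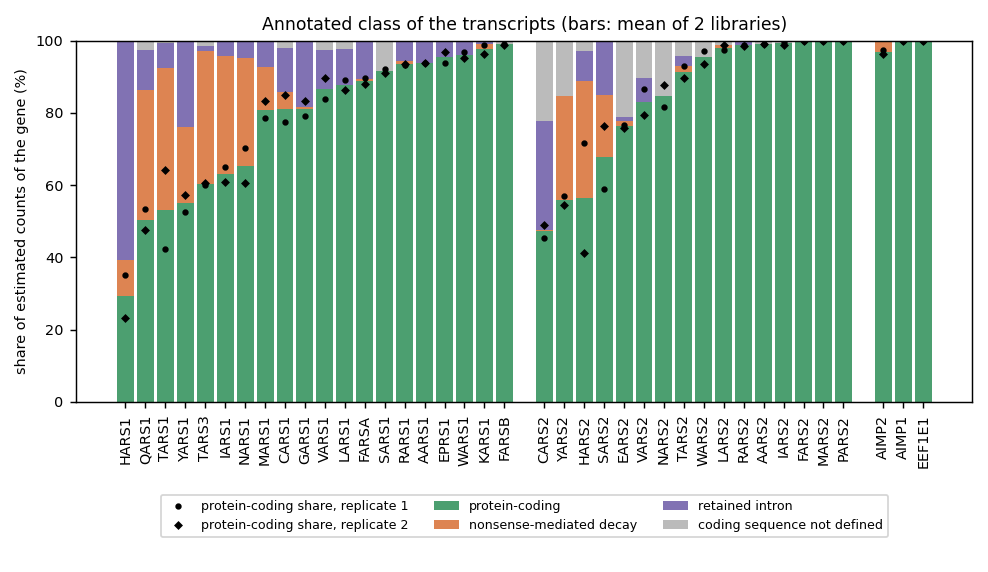
Share of the estimated counts of each gene (vertical axis, percent) by annotated transcript class, as the mean of 2 libraries (stacked bars) with the protein-coding share in replicate 1 (circles) and replicate 2 (diamonds). HARS1 and CARS2 have the lowest coding shares of their classes, and TARS1, SARS2 and HARS2 show circles and diamonds far apart.

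Promoters were searched for the core of the C/EBP-ATF response element, TGATGNAAN on either strand, to which ATF4 binds together with C/EBP proteins. RefSeq promoter windows from 250 bases before to 50 bases after a start (GRCh38.p14) were matched for 33 of 39 members, and not for LARS1, TARS3, VARS1, YARS1, AARS2 and VARS2. A gene was counted when at least 1 of its windows held the motif. It was found in 7 of 16 cytosolic genes (43.8%), 1 of 14 mitochondrial genes (7.14%) and none of the 3 scaffold genes. Of all 27305 genes with a window, 4.45% held it, and of all 35116 windows 3.61%. The 8 matches are shown in 30 bases of the gene's own strand, with the motif in capitals.
AARS1, chr16:70289675-70289704, minus strand: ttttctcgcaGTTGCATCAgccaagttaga
CARS1, chr11:3057407-3057436, minus strand: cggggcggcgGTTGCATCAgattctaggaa
IARS1, chr9:92293692-92293721, minus strand: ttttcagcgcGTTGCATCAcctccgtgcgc
MARS1, chr12:57488053-57488082, plus strand: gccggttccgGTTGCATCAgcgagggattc
NARS1, chr18:57621803-57621832, minus strand: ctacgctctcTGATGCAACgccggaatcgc
TARS1, chr5:33440956-33440985, plus strand: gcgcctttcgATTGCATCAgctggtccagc
GARS1, chr7:30594834-30594863, plus strand: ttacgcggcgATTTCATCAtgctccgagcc
YARS2, chr12:32756075-32756104, minus strand: tccacactgcTGATGGAAAaattaagttta
AARS1, CARS1, IARS1 and MARS1 hold the same letters, and NARS1 holds them on the other strand. The matches in CARS1, GARS1, IARS1, MARS1, NARS1 and TARS1 begin within 34 bases of the start, and those in AARS1 and YARS2 begin 188 and 197 bases before it. Levels of the 7 cytosolic genes with a match ran from 26.8 for CARS1 to 147 for TARS1. A match describes the letters of the window and not binding, and no binding was measured here.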

How the data were processed

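RNA-seq of rRNA-depleted total RNA from 2 HEK293 libraries was used. For each transcript the authors deposited an estimated count, and a normalised count, a signal equal to that count divided by a size factor (0.945 and 1.08). Reads were processed with STAR 2.7.0d and RSEM 1.3.3 per the submitters' processing notes; how strand was set is not given in the sources used here. Transcripts were matched without version to GENCODE v44: 202217 of 206696, with 96.9% and 96.8% of the counts. Of 466 member transcripts listed, 390 had the same version. No effective length correction was made. The members, lists, motif and rules were chosen with earlier results of these data known. Every member could be named; of transcripts, those that lead a gene, hold at least 20%, or belong to KARS1 or GARS1. Others were named after their values were seen. The 2-fold count was tested on simulated data (19110 genes, 200 changed 4-fold): 100% of changed and 0.988% of unchanged genes were called. The planted changes were well above the cut-off, and in the data 5.76% of genes were called. The simulation therefore checks the code and does not give the error of the count in these libraries. Values were computed with pandas 2.3.3 and scipy 1.17.1. Each library alone, other lengths, coding transcripts only and other filters were tried as alternatives. The deposited METTL8 transcript tables were not used.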

Additional observations from a re-analysis of the deposited data

How the results depend on the processing

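No paired analysis was possible because all libraries belong to 1 group. Of 117 alternatives other than a library alone, 105 kept the call, the number counted or, for a share, a value within 1 SD. Dividing counts by length moved the median share of protein-coding transcripts from 89.6 to 79.3%. The log2 ratio of HARS1 to HARS2, -0.87 as reported, fell within the spread with normalised counts (-0.45), canonical transcript lengths (-0.11), coding transcripts only (-0.77) and coding lengths (-0.46). The other 4 changed calls, those of IARS1, VARS1, RARS1 and EPRS1 against a mitochondrial gene, are given with the pairs, and under coding transcripts only or coding lengths the cytosolic gene was higher in 13 pairs. Coding lengths were added after seeing the data. None of the 48 values from a library alone reversed. For the pairs and the comparisons of medians and subunits this was fixed by the rule, which calls only differences whose order the libraries share. The log2 ratio of the class medians ran from 1.89 to 2.08 by library, and that of the complex enzymes from 0.61 to 0.69. The log2 ratio of FARSA to FARSB ran from 2.41 to 3.04, and the KARS1-202 share from 2.54 to 4.16%. By length the leading transcript was shared in 29 of 37 members, beside 71.2% of all such genes. With 2 libraries, SDs are imprecise, and transcript lengths come from another annotation release than the counts.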
